A study of Mus musculus with 12 samples.

Results

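The genes that make taurine and carry it into cells were followed in liver and in quadriceps muscle from 4-week-old mice whose mothers had or had not received taurine during pregnancy. They are Cbs, Cth, Cdo1, Csad and Gadl1 for synthesis and Slc6a6 for uptake. They were chosen for their place in taurine metabolism, with earlier results of these data known, and the rule itself uses no measured value. It takes all probe sets that the array annotation gives to 1 of these symbols alone. This gave 11 of the 45101 probe sets on the array, and 6 of the 18193 genes with such a probe set. In the NP+tau group the dams were given a normal protein diet and 1% taurine in their drinking water, and in the NP group the same diet and no taurine. Each group held 3 C57BL/6 offspring, each tissue was measured in all of them on Affymetrix mouse arrays, and the taurine was given to the dams from the first day of pregnancy until birth. According to the study's methods the diet itself had no detectable taurine, each pup was born to a different dam, and both tissues came from the same animal.

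Taurine is a sulfur amino acid that is not built into protein. It is made from methionine by way of homocysteine, cystathionine, cysteine and hypotaurine, with liver as a main site of synthesis, where taurine is also joined to bile acids. Skeletal muscle holds a large store of taurine and relies mostly on uptake from blood through the sodium- and chloride-dependent transporter TauT, the product of Slc6a6. Fetal tissues make little taurine themselves and receive it from the mother across the placenta.

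Levels are given as log2 RMA values, in which the authors summarised the probes of a probe set after quantile normalisation of the arrays of a tissue, so that a difference of 1 is a doubling. Since the tissues were normalised separately and the brightness of a probe set depends on its probes, a level was tested only within a tissue and for the same probe set. Differences are NP+tau minus NP with the standard error (SE), 95% interval and Benjamini-Hochberg adjusted p of limma, fitted over all 29274 probe sets kept in a tissue. A probe set was kept if its highest value reached the 35th percentile of these highest values, which was 4.60 in liver and 4.49 in muscle. The number of arrays, 6 per tissue, limits the precision of each difference.

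The tissues showed their own markers. The mean level of 7 hepatocyte markers was 14.04 to 14.20 in NP+tau livers and 13.90 to 14.24 in NP livers, and that of 8 muscle fibre markers was 14.40 to 14.45 in NP+tau muscles and 14.40 to 14.46 in NP muscles. The array of NP+tau liver replicate 1 stood apart, with a median absolute deviation from the median array of 0.450, against 0.0769 to 0.169 in the other livers. The 6 muscle fibre markers kept in liver had a mean level of 5.39 on this array. It was 4.56 and 4.58 in NP+tau replicates 2 and 3 and 4.55 to 4.61 in NP livers. Of these markers, Actn3 and Myh1 passed the filter only through NP+tau replicate 1, at 5.93 and 4.84. The list was therefore selected in part by the array that stood apart. Acta1, Ckm and Mylpf passed through other livers as well and were also highest on this array, at 6.11, 5.16 and 5.73. Pvalb was not highest there. Xist, the RNA made from the inactive X chromosome of females, was at 11.08, 5.96 and 5.07 in NP+tau liver replicates 1, 2 and 3 and at 11.63 to 11.78 in NP liver. Muscle showed the same order, with 10.87, 5.56 and 5.12 in NP+tau replicates 1, 2 and 3 and 10.85 to 11.13 in NP samples. By this marker the NP group held females only, whereas the study's methods describe groups of both sexes, so that diet and sex partly coincide in every comparison below.

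No probe set of the 6 genes passed the test in either tissue. In liver, 9 of the 11 probe sets, from 5 of the 6 genes, were kept, and 0 of them reached an adjusted p under 0.05, as did 0% of all probe sets. At an unadjusted p under 0.05 stood 2 of the 9, against 4.69% of all probe sets, and both of these were probe sets of Slc6a6 that were lower in NP+tau liver. In muscle all 11 probe sets were kept, and 0 of them reached an adjusted p under 0.05, against 0% of all probe sets, or an unadjusted p under 0.05, against 6.12% of all probe sets. The median difference was -0.12 over the 9 probe sets in liver, with 3 above and 6 below 0, and -0.03 over the 11 in muscle, with 5 above and 6 below 0. Over all probe sets kept, it was -0.04 in liver and 0.01 in muscle. Without a filter on dim probe sets the 11 members had a median of -0.02 in liver and -0.03 in muscle.

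**Figure D1:**
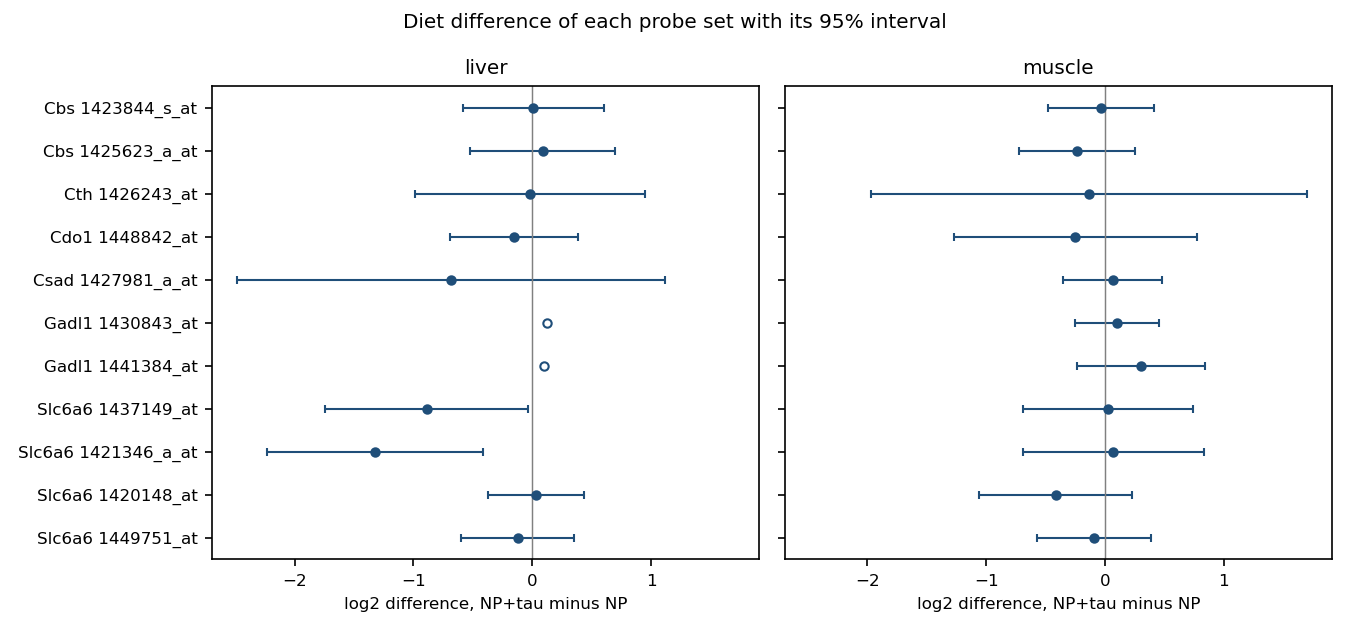
Log2 difference, NP+tau minus NP (horizontal axis), for each probe set of the 6 genes in liver (left) and muscle (right), with the 95% interval from limma; the 2 open points are Gadl1 probe sets that were not kept in liver. The intervals of Slc6a6 1437149_at and 1421346_a_at lie below 0 in liver, at -1.74 to -0.03 and -2.24 to -0.42, and all other intervals in both tissues include 0.

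Cystathionine beta-synthase, the product of Cbs, joins homocysteine to serine and so opens the route out of the methionine cycle. In liver its brighter probe set 1423844_s_at was at 10.12, 10.90 and 10.39 in NP+tau replicates 1, 2 and 3 and at 10.24, 10.44 and 10.70 in NP replicates 1, 2 and 3. The NP+tau livers held both the lowest and the highest value, and the difference was 0.01 (SE 0.25, 95% interval -0.58 to 0.60, limma adjusted p = 0.989). The other probe set, 1425623_a_at, was at 9.23, 9.89 and 9.29 in NP+tau livers and at 9.07, 9.39 and 9.68 in NP livers, a difference of 0.09 (SE 0.26, limma adjusted p = 0.896). Both probe sets thus gave overlapping groups and a difference near 0. In muscle the Cbs values of both groups were not far from the filter limit. There 1423844_s_at was at 4.995, 5.42 and 4.90 in NP+tau and at 5.33, 5.08 and 4.98 in NP samples, a difference of -0.03 (SE 0.19, limma adjusted p = 0.964). The other probe set reached 4.23 to 4.54 in NP+tau and 4.25 to 4.95 in NP muscle, and differed by -0.23 (SE 0.21, limma adjusted p = 0.736).

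Cth encodes cystathionine gamma-lyase, which splits cystathionine and releases cysteine. In NP+tau liver it was at 11.67, 13.30 and 12.02 and in NP liver at 12.27, 12.25 and 12.52. The 3 NP livers lay close together and inside the range of the NP+tau livers, whose SD was 0.86 against 0.15. The means were 12.33 in NP+tau and 12.35 in NP liver, and the difference was -0.02 (SE 0.41, 95% interval -0.99 to 0.95, limma adjusted p = 0.984). In muscle Cth was at 5.42, 7.17 and 4.99 in NP+tau samples and at 7.50, 5.47 and 5.01 in NP samples. Each group thus held 1 high muscle, NP+tau replicate 2 and NP replicate 1, and the difference was -0.13 with a wide interval (SE 0.78, 95% interval -1.97 to 1.70, limma adjusted p = 0.961).

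Cysteine dioxygenase, encoded by Cdo1, oxidises cysteine to cysteine sulfinate and commits it to taurine or sulfate. The liver enzyme had the values 12.29, 12.97 and 12.62 in NP+tau and 12.65, 12.68 and 13.01 in NP replicates 1, 2 and 3. The groups overlapped, and the difference was -0.16 (SE 0.23, 95% interval -0.69 to 0.38, limma adjusted p = 0.790), which leaves room for a fold between 0.618 and 1.30. In muscle Cdo1 was at 7.46, 7.10 and 8.48 in NP+tau and at 7.21, 8.38 and 8.20 in NP samples. Here too each group held high and low samples, and the difference was -0.25 (SE 0.43, 95% interval -1.27 to 0.77, limma adjusted p = 0.856).

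Csad encodes cysteine sulfinic acid decarboxylase, which turns cysteine sulfinate into hypotaurine, the last intermediate before taurine. In liver it varied more between animals than any other of the 6 genes, with 6.88, 10.01 and 8.66 in NP+tau and 8.48, 9.80 and 9.33 in NP replicates 1, 2 and 3. Its lowest and its highest liver were both in the NP+tau group, 3.13 apart on the log2 scale. The mean was 8.52 ± 1.57 in NP+tau and 9.20 ± 0.67 in NP liver (SD, n = 3 each). The difference of -0.68 was within this spread (SE 0.76, 95% interval -2.49 to 1.12, limma adjusted p = 0.741), and it moved with single livers. It was 0.13 without NP+tau replicate 1, the array that stood apart, and -1.43 without NP+tau replicate 2, the highest liver (limma unadjusted p = 0.0558). With Xist as a covariate, a fit that in effect sets NP+tau replicate 1 alone against the NP livers, it was -2.45 (limma unadjusted p = 0.0250, adjusted p = 0.0678), where 45.2% of all liver probe sets had an unadjusted p under 0.05. In muscle Csad was at 6.02, 6.23 and 6.52 in NP+tau and at 6.34, 6.03 and 6.20 in NP samples. All 6 muscles lay within 0.50 of each other, and the difference was 0.07 (SE 0.18, 95% interval -0.35 to 0.48, limma adjusted p = 0.913).

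Gadl1 encodes a decarboxylase related to Csad, best known for making beta-alanine in muscle, with some activity on cysteine sulfinate. Neither of its probe sets was kept in liver, where 1430843_at was at 4.39 to 4.57 in NP+tau and 4.32 to 4.40 in NP samples and 1441384_at at 4.21 to 4.29 in NP+tau and 4.10 to 4.24 in NP samples. In muscle both passed the filter. The first had the muscle values 5.42, 5.26 and 5.03 in NP+tau and 5.06, 5.17 and 5.17 in NP, a difference of 0.10 (SE 0.15, limma adjusted p = 0.829). The second was at 5.59, 5.24 and 5.49 in NP+tau and at 4.73, 5.13 and 5.55 in NP muscle, a difference of 0.30 (SE 0.23, limma adjusted p = 0.717). The diet groups overlapped on both.

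**Figure D2:**
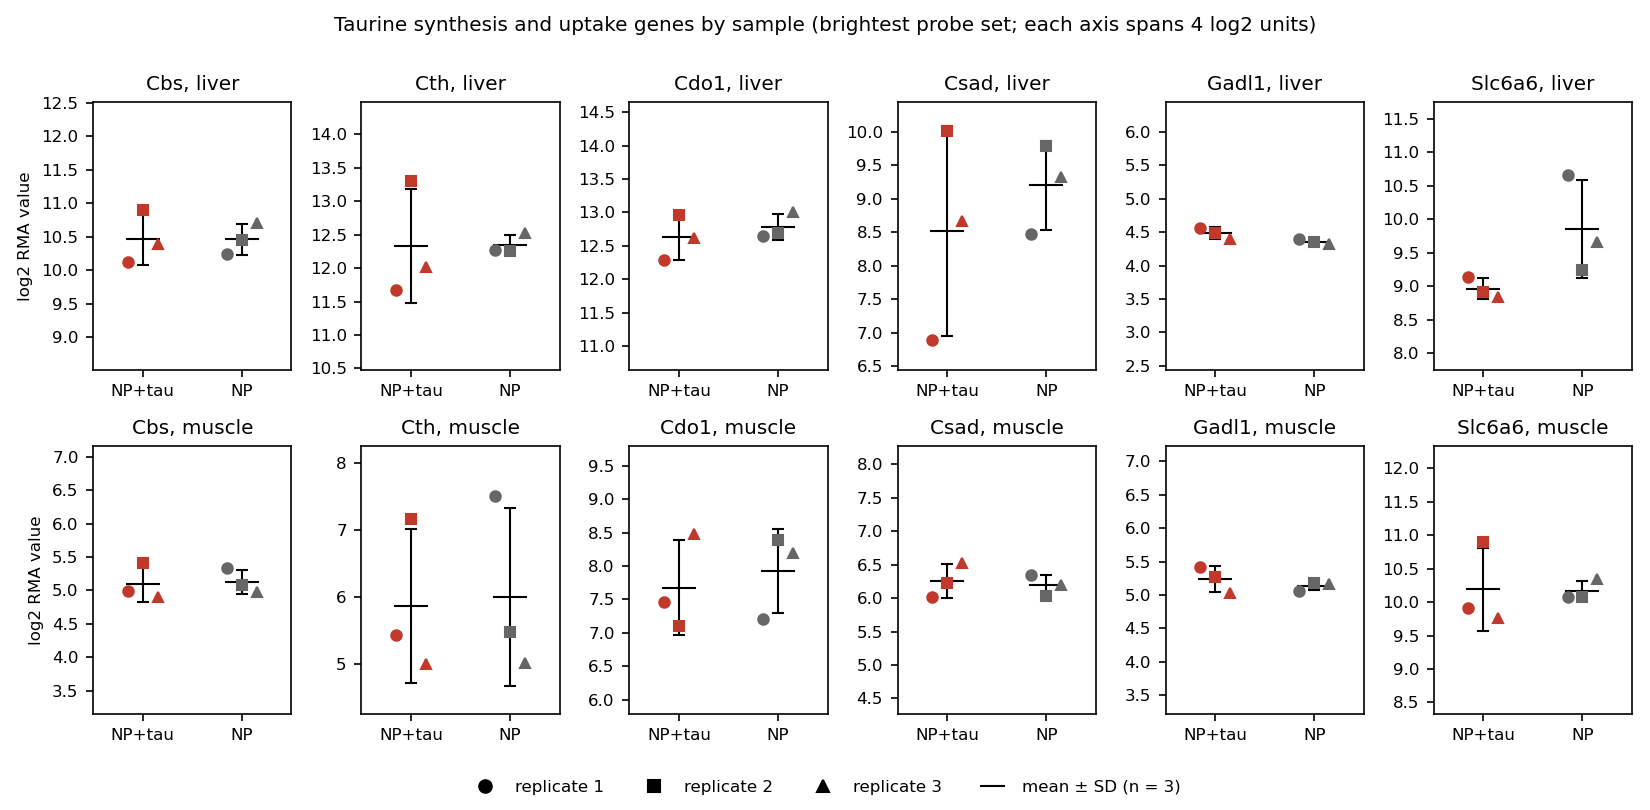
Log2 RMA value (vertical axes, each spanning 4 units) of the brightest probe set of each gene in the 3 NP+tau (red, left) and 3 NP (grey, right) samples of liver (top row) and muscle (bottom row); markers give the replicate, and the lines and bars the mean ± SD. Liver Csad runs from 6.88 to 10.01 within the NP+tau group, and only liver Slc6a6 shows groups that do not overlap, at 8.84 to 9.14 in NP+tau and 9.23 to 10.66 in NP.

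The synthetic enzymes shared much of their order across the 6 livers. NP+tau replicate 1 had the lowest liver value of Cbs 1423844_s_at, Cth, Cdo1 and Csad, and this is the array that stood apart. On the other Cbs probe set, 1425623_a_at, the lowest liver was NP replicate 1 at 9.07, followed by NP+tau replicate 1 at 9.23. NP+tau replicate 2 had the highest liver value of Cbs 1423844_s_at, Cth and Csad, and also of Cbs 1425623_a_at, and for Cdo1 the second highest, 12.97, below 13.01 in NP replicate 3. A part of the array itself in this shared order was not tested. For these enzymes the promoter, the DNA just before the start of transcription, was taken from RefSeq on the mouse build GRCm38.p6, as the 250 bases before each annotated start. A window was found for 3 of the 6 genes, 4 windows in all, and none for Cth, Cdo1 or Slc6a6. A part of these sequences in the order of the livers was not tested. Those of Cbs and Csad are printed because these genes shared the order of the livers, in the direction of transcription, with CCAAT and GGGCGG, the core letters bound by NF-Y and by Sp1, in capitals on either strand (ATTGG and CCGCCC are the same letters read on the other strand).
Cbs promoter, chr17:31637206-31637455, minus strand: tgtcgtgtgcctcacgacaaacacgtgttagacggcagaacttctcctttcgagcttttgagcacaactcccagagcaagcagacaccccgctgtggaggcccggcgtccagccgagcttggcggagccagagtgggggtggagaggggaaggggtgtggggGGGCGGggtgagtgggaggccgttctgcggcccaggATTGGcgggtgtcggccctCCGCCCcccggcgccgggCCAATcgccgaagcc
Csad promoter, first start, chr15:102205053-102205302, minus strand: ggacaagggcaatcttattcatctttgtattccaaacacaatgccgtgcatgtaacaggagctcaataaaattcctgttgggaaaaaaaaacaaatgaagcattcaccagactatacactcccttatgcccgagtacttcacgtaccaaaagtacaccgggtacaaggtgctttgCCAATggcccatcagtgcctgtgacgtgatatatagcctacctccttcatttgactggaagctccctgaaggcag
Csad promoter, second start, chr15:102189044-102189293, minus strand: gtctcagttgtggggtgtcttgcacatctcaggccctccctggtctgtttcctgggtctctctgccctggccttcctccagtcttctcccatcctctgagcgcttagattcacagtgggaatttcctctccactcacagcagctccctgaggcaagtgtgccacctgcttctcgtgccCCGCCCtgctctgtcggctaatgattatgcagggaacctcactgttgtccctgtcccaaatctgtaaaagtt
The Cbs window held 2 CCAAT and 2 GGGCGG matches and was 68.0% G and C, the first Csad window held 1 CCAAT match and no GGGCGG and was 44.8% G and C, and the second held 1 GGGCGG match and no CCAAT and was 55.6% G and C. The Gadl1 window, on chromosome 9, held neither. Such matches are common, since 33.8% of the 32851 mouse promoter windows of this length hold CCAAT and 32.7% hold GGGCGG. Neither motif was found in all 3 printed windows.

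Between the tissues, the enzymes and the transporter lay in different order, as far as separately normalised values can show. The lowest liver value was above the highest muscle value for Cbs (10.12 and 5.42 for 1423844_s_at), Cth (11.67 and 7.50), Cdo1 (12.29 and 8.48) and Csad (6.88 and 6.52). Gadl1 1430843_at had the opposite order, with 4.32 to 4.57 in liver and 5.03 to 5.42 in muscle. Slc6a6 overlapped between the tissues on its brightest probe set, with 8.84 to 10.66 in liver and 9.76 to 10.90 in muscle. Within each tissue the diet groups of each of the 5 enzyme genes overlapped.

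Slc6a6, the transporter, was the one gene whose diet groups did not overlap, and this was in liver. Its brightest probe set, 1437149_at, was at 9.14, 8.91 and 8.84 in NP+tau liver and at 10.66, 9.23 and 9.66 in NP liver, with means of 8.96 ± 0.16 and 9.85 ± 0.73 (SD, n = 3 each). The second, 1421346_a_at, was at 7.16, 8.14 and 7.28 in NP+tau liver and at 9.52, 8.34 and 8.69 in NP liver, with means of 7.52 ± 0.54 and 8.85 ± 0.61 (SD, n = 3 each). On both, every NP+tau liver lay below every NP liver, and NP replicate 1 was the highest of all. The difference was -0.89 on 1437149_at (SE 0.36, 95% interval -1.74 to -0.03, limma unadjusted p = 0.0438, adjusted p = 0.718), a fold of 0.540 (95% interval 0.298 to 0.977). On 1421346_a_at it was -1.33 (SE 0.38, 95% interval -2.24 to -0.42, limma unadjusted p = 0.0108, adjusted p = 0.718), a fold of 0.399 (95% interval 0.212 to 0.750). The two-sided exact permutation test gave p = 0.1 for each, the smallest p that 3 samples against 3 allow. Groups with NP+tau entirely below NP were found for 2 of the 9 probe sets and for 9.11% of all liver probe sets, and an unadjusted p under 0.05 with a lower NP+tau level for 3.99% of all, so that Slc6a6 was 1 of many genes with such values on these arrays.

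The 2 other Slc6a6 probe sets did not show this difference. In liver 1420148_at was at 6.19, 6.28 and 5.94 in NP+tau and at 6.04, 6.15 and 6.12 in NP samples, a difference of 0.03 (SE 0.17, 95% interval -0.37 to 0.43, limma adjusted p = 0.948). The dimmest, 1449751_at, was at 4.19, 4.77 and 4.63 in NP+tau and at 4.65, 4.65 and 4.66 in NP samples, a difference of -0.12 (SE 0.20, limma adjusted p = 0.806), with values close to the filter limit. The probe sets of the gene therefore disagreed in liver, and which transcripts each of them detects was not examined. The mean of the 4 probe sets gave -0.58 (limma unadjusted p = 0.0323, adjusted p = 0.726).

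**Figure D3:**
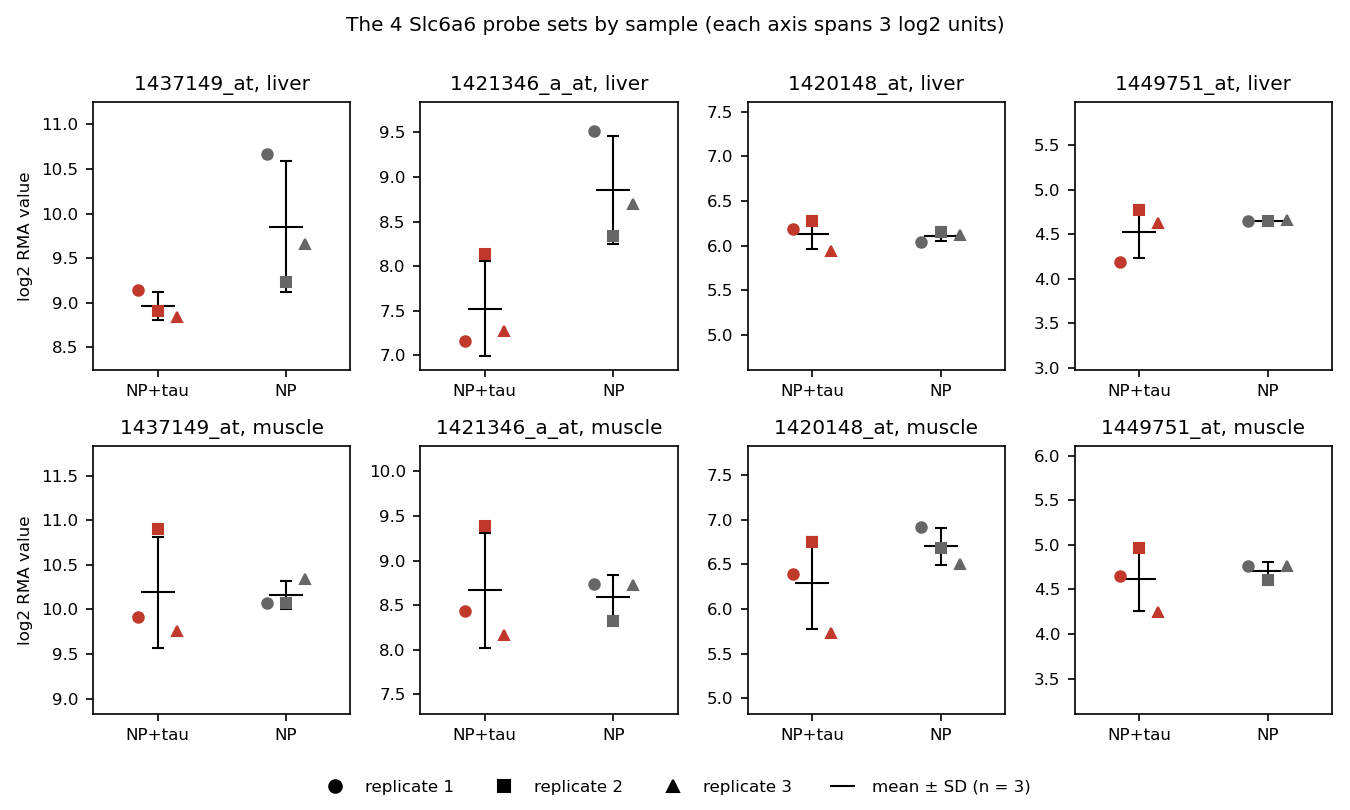
Log2 RMA value (vertical axes, each spanning 3 units) of the 4 Slc6a6 probe sets in NP+tau (red, left) and NP (grey, right) samples of liver (top row) and muscle (bottom row); markers give the replicate, and the lines and bars the mean ± SD (n = 3). In liver the groups are apart on 1437149_at and 1421346_a_at and overlap on 1420148_at and 1449751_at; in muscle they overlap on all 4.

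The Slc6a6 values in liver rested in part on single livers. Without NP replicate 1 the difference of 1437149_at was -0.48 (limma unadjusted p = 0.0777) and that of 1421346_a_at was -0.99 (limma unadjusted p = 0.0314). Without NP replicate 1 and NP+tau replicate 1 together they were -0.57 and -0.81. Both probe sets thus stayed below 0, and the sizes were smaller. With the level of Xist as a covariate the differences were -0.66 (limma unadjusted p = 0.287) and -1.66 (limma unadjusted p = 0.0329, adjusted p = 0.0822). As for Csad, this fit rests on NP+tau replicate 1, the array that stood apart, and 45.2% of all liver probe sets had an unadjusted p under 0.05 in it. Among livers with high Xist, NP+tau replicate 1 had 9.14 on 1437149_at against 9.23 to 10.66 in NP livers, and 7.16 on 1421346_a_at against 8.34 to 9.52.

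Markers of other liver cells also had lower values in NP+tau liver, none at an adjusted p under 0.05. All 9 macrophage and Kupffer cell markers were lower, with a median difference of -1.18 and 7 at an unadjusted p under 0.05, against 5.24% of all liver genes in either direction, and their mean level was 7.48 to 8.50 in NP+tau and 8.96 to 9.80 in NP livers. Marco, a scavenger receptor of Kupffer cells, was at 7.99, 6.91 and 8.22 in NP+tau and at 10.26, 9.23 and 9.77 in NP livers. The Marco groups did not overlap, and 9.11% of all liver probe sets had NP+tau entirely below NP. All 9 markers passed the filter, but Cd163 was at 4.30 and 4.52 in NP+tau replicates 1 and 2, below the limit of 4.60. The 6 neutrophil markers were all lower, with a median of -2.65 and 4 at an unadjusted p under 0.05, and their mean level was 5.17 to 5.69 in NP+tau and 6.89 to 10.15 in NP livers. Of these, Mmp8 was below the limit of 4.60 in replicates 2 and 3 of both groups. Its difference of -0.80 rested on NP replicate 1 at 6.85, against 4.72 in NP+tau replicate 1. NP replicate 1, the liver with the highest Slc6a6 on both bright probe sets, also had the highest mean of both lists, 9.80 for the macrophage and Kupffer cell markers and 10.15 for the neutrophil markers. Of the 6 fibroblast and stellate cell markers 5 were lower, 3 of them at an unadjusted p under 0.05. Their mean level was 7.69 to 8.23 in NP+tau and 8.48 to 9.16 in NP livers. The marker of this list above 0 was Lrat, with a difference of 0.45 (SE 0.39). Of the 5 endothelial markers all 5 were lower, with 6.77 to 7.72 in NP+tau and 7.58 to 7.83 in NP livers. Of the 4 fat cell markers kept in liver, Fabp4 was lower by -1.16 and Cidec by -1.17, while Retn (-0.007) and Plin4 (0.002) were near 0. Their mean level was 6.22 to 6.73 in NP+tau and 6.42 to 7.74 in NP livers. The part of these cells in the Slc6a6 difference was not tested, and in whole tissue fewer cells of a type and less RNA per cell cannot be told apart.

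In muscle the groups overlapped on all 4 Slc6a6 probe sets. The values of 1437149_at were 9.91, 10.90 and 9.76 in NP+tau and 10.07, 10.08 and 10.34 in NP samples, with NP+tau replicate 2 the highest. The difference was 0.03 (SE 0.30, 95% interval -0.69 to 0.74, limma adjusted p = 0.982), so that folds between 0.619 and 1.67 lie within the interval. The second probe set, 1421346_a_at, was at 8.44, 9.39 and 8.17 in NP+tau and at 8.74, 8.32 and 8.73 in NP muscle, a difference of 0.07 (SE 0.32, limma adjusted p = 0.9503). Again replicate 2 was the highest and the groups overlapped. For 1420148_at the difference was -0.41 (SE 0.27, limma adjusted p = 0.711), with 5.73 to 6.75 in NP+tau and 6.51 to 6.92 in NP samples, and for 1449751_at it was -0.09 (SE 0.20, limma adjusted p = 0.892).

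The diet difference of Slc6a6 in muscle was compared with that in liver by an interaction term over the 25622 probe sets kept in both tissues. The muscle difference minus the liver difference was 0.91 for 1437149_at (SE 0.51, 95% interval -0.19 to 2.02, limma unadjusted p = 0.0963, adjusted p = 0.542) and 1.40 for 1421346_a_at (SE 0.54, 95% interval 0.22 to 2.58, limma unadjusted p = 0.0244, adjusted p = 0.542). Neither passed the adjusted test, and 7.8% of all probe sets had an unadjusted p under 0.05 in it. This fit treated the 12 samples as independent. With the animal as a block, taking equal replicate numbers as 1 animal, limma's unadjusted p was 0.0784 for 1437149_at and 0.0131 for 1421346_a_at. The adjusted p was 0.426 for both. A difference between the tissues in Slc6a6 was thus not shown. The other 7 probe sets tested, from all genes but Gadl1, had adjusted p of 0.560 or more, Csad among them with 0.75 (SE 0.85, adjusted p = 0.674).

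The rest of sulfur amino acid and taurine metabolism was examined in 7 lists of genes, each gene by its brightest kept probe set. In liver 58 of the 62 listed genes on the array were kept, 32 with a difference above 0 and 26 below, and the median was 0.02 against -0.04 over all 14276 genes. In muscle 51 were kept, 39 above and 12 below 0, with a median of 0.13 against 0.03 over all 13829 genes. No gene of the lists passed limma's test in either tissue, the smallest adjusted p being 0.718 in liver and 0.707 in muscle. At an unadjusted p under 0.05 stood 1 gene in liver, or 1.72% against 5.24% of all genes, and 3 genes in muscle, or 5.88% against 6.26% of all genes.

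In liver the 1 gene was Got1, the cytosolic aspartate aminotransferase, which also takes cysteine sulfinate away from taurine synthesis. It was at 11.56, 11.32 and 12.003 in NP+tau and at 12.05, 12.82 and 12.32 in NP livers, a difference of -0.77 (SE 0.27, limma unadjusted p = 0.0265, adjusted p = 0.718). The NP+tau livers all lay below the NP livers, by a small gap between 12.003 and 12.05, and 9.11% of all liver probe sets had NP+tau entirely below NP. The list of taurine conjugation, N-acetyltaurine and mitochondrial transfer RNA modification had 6 of 7 genes above 0 in liver, with a median of 0.30. The gene below 0 was Baat, which joins taurine to bile acids (difference -0.08, SE 0.38, limma adjusted p = 0.936). Pter, which splits N-acetyltaurine, was at 9.75, 10.19 and 9.78 in NP+tau and at 8.74, 9.47 and 9.64 in NP livers, without overlap, against 5.73% of all liver probe sets with NP+tau entirely above NP (difference 0.63, SE 0.28, limma unadjusted p = 0.0582). Trmu and Gtpbp3, which modify mitochondrial transfer RNA, differed by 0.31 (SE 0.22) and 0.30 (SE 0.21) and overlapped between the groups.

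The remaining liver lists were spread about 0. The methionine cycle had 8 genes above and 5 below 0 (median 0.02), cysteine and sulfide catabolism 6 and 4 (median 0.08), and glutathione synthesis and cysteine supply 5 and 8 (median -0.12). In the catabolic list, the flavin monooxygenase Fmo1 differed by 0.77 (SE 0.39) and the sulfurtransferase Tst by 0.51 (SE 0.28). Gss, which completes glutathione, was at 7.52, 8.91 and 8.83 in NP+tau and at 9.88, 8.94 and 9.03 in NP livers, a difference of -0.86 (SE 0.44), and its lowest value was again in the array that stood apart. Other taurine carriers and volume-regulated channels had 3 genes above and 4 below 0 (median -0.12). Of the osmotic genes 2 were above and 3 below 0 (median -0.07), among them Nfat5, the factor that drives Slc6a6 in hypertonic cells, at 5.54, 6.49 and 6.59 in NP+tau and 6.86, 6.75 and 6.95 in NP livers (difference -0.65, SE 0.30, limma unadjusted p = 0.0660). Nfat5 was thus lower in each NP+tau liver without passing the test, and 9.11% of all liver probe sets had NP+tau entirely below NP. The lowest Nfat5 value was in NP+tau replicate 1, the array that stood apart. A link of Nfat5 to Slc6a6 was not tested. The 3 genes of pyridoxal phosphate supply, the cofactor of Cbs, Cth and Csad, had a median of 0.19.

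In muscle the osmotic list stood farthest from 0, with 5 of 5 genes above it and a median of 0.78. Hspa4l, a heat shock protein induced by osmotic stress, was at 5.68, 6.13 and 5.92 in NP+tau and at 4.89, 4.98 and 5.52 in NP muscles, a difference of 0.78 (SE 0.22, limma unadjusted p = 0.00858, adjusted p = 0.707). Slc5a3, the transporter of the osmolyte myo-inositol, was at 6.09, 6.38 and 6.69 in NP+tau and at 4.92, 5.94 and 5.92 in NP muscles (difference 0.80, SE 0.31, limma unadjusted p = 0.0381, adjusted p = 0.707). Neither pair of groups overlapped, and 7.33% of all muscle probe sets had NP+tau entirely above NP. Hspa1b differed by 1.61 (SE 0.76), with 1 NP+tau muscle at 11.67 and the others at 8.62 and 8.96, and Nfat5 by 0.13 (SE 0.17).

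The breakdown of cysteine and sulfide in muscle had 8 genes above and 2 below 0 (median 0.20). Suox, which oxidises sulfite to sulfate, was at 7.97, 8.24 and 7.98 in NP+tau and at 7.02, 7.77 and 7.74 in NP samples, a difference of 0.55 (SE 0.23, limma unadjusted p = 0.0487, adjusted p = 0.707). Ado, the dioxygenase that makes hypotaurine from cysteamine, was at 8.90, 9.10 and 8.81 in NP+tau and at 7.94, 8.80 and 8.46 in NP samples (difference 0.53, SE 0.23, limma unadjusted p = 0.0555). NP replicate 1 was the lowest muscle for both genes. The mitochondrial persulfide dioxygenase Ethe1 differed by 0.47 (SE 0.24). Of the other muscle lists, the methionine cycle had 7 genes above and 4 below 0 (median 0.09) and glutathione synthesis and cysteine supply 7 and 5 (median 0.20). The list of taurine conjugation and transfer RNA modification had 4 and 1 (median 0.03). Carriers and channels had 5 and 0 (median 0.08) and pyridoxal phosphate supply 3 and 0 (median 0.21). Markers of other cells differed between the muscles too, 0 of them at an adjusted p under 0.05. Endothelial markers were higher in 4 of 5, with a mean level of 7.66 to 7.78 in NP+tau and 7.42 to 7.72 in NP muscles, and Cdh5, the cadherin of their junctions, was at 7.79, 7.69 and 7.71 in NP+tau and at 6.89, 7.11 and 7.02 in NP muscles (difference 0.73, limma unadjusted p = 0.000966, adjusted p = 0.707). Fat cell markers were lower in 5 of 6, with a mean level of 8.30 to 9.16 in NP+tau and 8.86 to 9.45 in NP muscles. Macrophage markers were lower in 7 of 8, with 5.59 to 6.02 in NP+tau and 5.91 to 6.30 in NP muscles. Of these, Cd5l passed the filter only through NP muscles, with 4.07 to 4.17 in NP+tau, below the limit of 4.49. Marco, the macrophage marker above 0 (0.16), passed only through NP+tau replicate 3 at 4.55. Hepatocyte markers were lower in 6 of 6, with 5.60 to 5.83 in NP+tau and 5.84 to 6.68 in NP muscles, without overlap. Of the 5 fibroblast markers Pdgfra (-0.69) and Dcn (-0.42) were lower without overlap. Over all muscle probe sets, NP+tau lay entirely below NP in 7.77%. The 3 collagen genes of the fibroblast list had differences above 0. The part of these cells in the differences of the muscle lists was not tested.

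**Figure D4:**
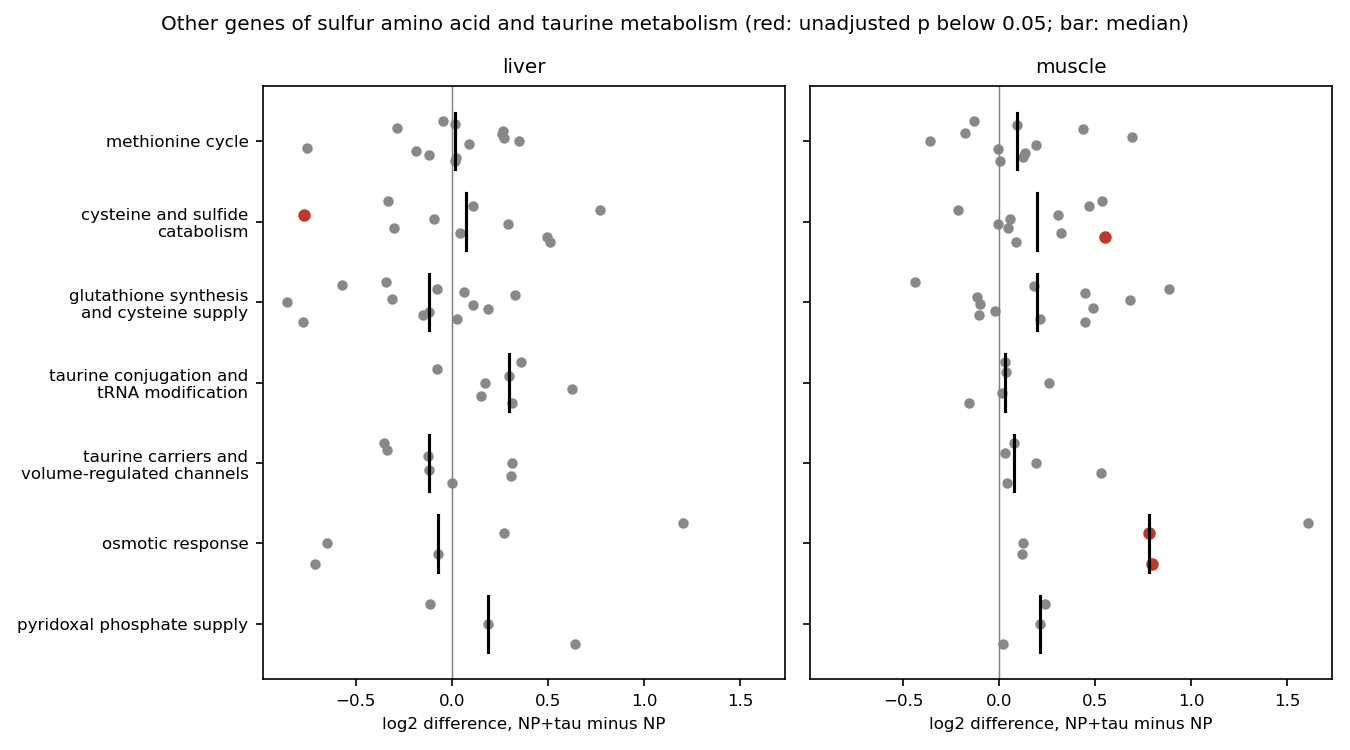
Log2 difference, NP+tau minus NP (horizontal axis), of each kept gene of the 7 lists in liver (left) and muscle (right); red points have an unadjusted p under 0.05, black bars are list medians, and the vertical position of points within a list has no meaning. The 1 red gene in liver is Got1 at -0.77, and the 3 in muscle are Hspa4l at 0.78, Slc5a3 at 0.80 and Suox at 0.55.

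The genes whose values ran most nearly parallel to each of the 6 genes across the samples were picked by Pearson's r over the 6 samples of a tissue. In liver they were Ccn1, Enah and Carf for Slc6a6 (r = 0.995, 0.994 and 0.993) and Ccnt2, Septin3 and Iqsec3 for Csad (r = 0.995 each). Cdo1 was followed by 1810019D21Rik, Pid1 and Tmem80 (r = 0.998, 0.995 and 0.992), Cth by Etv3, Rgs3 and Gna12 (r = 0.999, 0.997 and 0.997) and Cbs by Tmem53, Meiob and Atat1 (r = 0.991, 0.991 and 0.990). In muscle Slc6a6 was closest to Uts2r, Cep170b and Cilk1 (r = 0.998, 0.992 and 0.986), Csad to Foxp1, Cd24a and Nemp1 (r = 0.995, 0.991 and 0.987) and Cdo1 to Oaz1, Bicra and Bace2 (r = 0.993, 0.990 and 0.985). Cth there was closest to Slc40a1, Ddx46 and Zfyve1 (r = 0.996, 0.995 and 0.995), Cbs to Vps11, Dmwd and Dhps (r = 0.997, 0.996 and 0.996) and Gadl1 to Ecd, Pmm2 and Zfp14 (r = 0.988, 0.986 and 0.986). In liver these were the highest r among 14275 genes over only 6 points from 2 diet groups, where high values arise easily. Of these genes 122 had r over 0.95 with Slc6a6 and 165 with Csad. The r values are a description only.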

How the data were processed

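The deposited values were log2 expression values of 45101 probe sets in 12 samples of 4-week-old mice, which the authors made from Affymetrix arrays by quantile normalisation within a tissue and RMA summary in R and Bioconductor. The 64 control probe sets were removed, and dim probe sets were left out in place of the study's removal of absent probe sets, since presence calls were not used here. Of all probe sets, 34958 had 1 gene symbol, 932 several and 9211 none. NP+tau was compared with NP by the linear models and moderated test of limma 3.58.1 (R 4.3.3) over 29274 probe sets per tissue, with Benjamini-Hochberg adjustment and a threshold of 0.05, and the fit was tested on simulated data. The genes, lists and tests were chosen with earlier results of these data known. Every probe set of the 6 genes was reported, up to 4 genes with the smallest p per list and tissue could be named, and the 3 most similar genes were taken by Pearson's r. Block fits used statmod 1.5.0, and figures matplotlib 3.10.9. Promoter sequences came from RefSeq tables of GRCm38.p6. Alternatives were no or a stricter filter, an intensity trend, array weights, centring, the replicate number, the animal or Xist in the fit, the spread of all 12 arrays, gene means, and samples left out.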

Additional observations from a re-analysis of the deposited data

How the results depend on the processing

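The count of members at an adjusted p under 0.05 was 0 in each tissue under every alternative run. For list genes it was 0 without the filter, with gene means and with samples left out, and for the difference between tissues 0 with the animal block, without the filter, with centring and with samples left out; the other alternatives were not run for these. The 2 brighter Slc6a6 probe sets kept their direction in liver in all of them, with an adjusted p of 0.406 to 0.922 for 1437149_at and 0.0822 to 0.922 for 1421346_a_at. With samples left out in turn their differences ran from -1.20 to -0.48 and from -1.63 to -0.99. The replicate number did not pair the samples (correlations of same-numbered NP+tau and NP samples 0.02, -0.11 and 0.11 in liver and -0.21, -0.27 and 0.33 in muscle). With the replicate block the liver Slc6a6 differences of -0.89 and -1.33 had unadjusted p of 0.0261 and 0.0274 and an adjusted p of 0.744, the count of calls stayed 0, and no call changed.

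Of 217 differences of single probe sets under alternatives 32 changed direction, none of them of liver Slc6a6, of the difference between tissues or of muscle Gadl1 1430843_at. With samples left out in turn, liver Cbs ran from -0.20 to 0.18, Cdo1 from -0.33 to 0.013, Csad from -1.43 to 0.13 and Cth from -0.51 to 0.31. In muscle Cbs ran from -0.19 to 0.073, Cdo1 from -0.65 to 0.038, Csad from -0.066 to 0.18, Cth from -0.79 to 0.62, Slc6a6 1437149_at from -0.33 to 0.24 and 1421346_a_at from -0.29 to 0.32. Array weights gave 0.24 for liver Cth and -0.12 for muscle Slc6a6 1437149_at. Centring gave -0.028 for liver Cbs and 0.020 for muscle Cbs. With Xist in the fit, liver Csad was -2.45, Cth -0.66, Cdo1 -0.51 and Cbs -0.34, muscle Csad -0.18 and muscle Slc6a6 -0.20 and -0.11 on these 2 probe sets. The gene mean of muscle Slc6a6 was -0.10, and liver Cth without NP and NP+tau replicate 1 together 0.27. The cause of these changes was not tested. Array number and dim signal, in muscle Cbs and in Gadl1 above all, limit what could be seen.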

Other observations

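Muscle Slc6a6 was highest in NP+tau replicate 2, at 10.90 on 1437149_at, and several genes of amino acid supply and stress stood high in the same sample, a pattern chosen after its values were seen. Gclm, a subunit of the enzyme that starts glutathione synthesis, was at 11.23 there, against 8.08 and 8.50 in the other NP+tau muscles and 8.02 to 8.98 in NP muscles. Gsr, which regenerates glutathione, was at 9.57 there, against 7.58 and 7.35 in the other NP+tau muscles and 7.11 to 7.69 in NP muscles. Slc3a2, a subunit of several amino acid exchangers, was at 10.74, against 8.80 and 9.01 in the other NP+tau muscles and 8.83 to 9.30 in NP muscles. Hspa1b, an inducible heat shock protein, was at 11.67, against 8.62 and 8.96 in the other NP+tau muscles and 7.72 to 8.56 in NP muscles. Other genes of glutathione and cysteine supply were low there, with Slc1a5 the lowest of the 6 muscles at 7.49 and Chac1, Ggct and Oplah the lowest of the NP+tau muscles at 6.83, 6.03 and 6.57. Gclm, Gsr, Slc3a2 and Hspa1b were highest in this 1 muscle, which is a description of a single sample.

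Muscle Cth was high in NP+tau replicate 2 and NP replicate 1, at 7.17 and 7.50, and so was Gnmt, the glycine methyltransferase of the methionine cycle, also chosen after its values were seen. It was at 5.66, 6.69 and 5.10 in NP+tau and at 7.42, 5.57 and 5.55 in NP muscles.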
